A study of Rattus norvegicus with 6 samples.

Results

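The sequences described here are the predicted miRNAs of 20 nt or more in small RNA from vesicles of rat dedifferentiated fat (DFAT) cells. They are the entries of the deposited count table that carry the submitters' tag for predicted miRNAs and have a mature sequence of at least 20 nt, without 3 entries that are isoforms of known miRNAs. The smallest count listed anywhere in the table was 2, and cells left blank were taken as 0. Whether miRNAs were predicted in each library or in pooled reads is not known, so a blank, called no count below, may stand for reads that were not reported. The rule left 121 different sequences of 417 in the table, from 133 of its 483 lines. The other 296 were 217 annotated miRNAs, 76 predicted tags of 19 nt or less and the 3 isoforms. Each sequence is called here by the chromosome and serial number that end its name in the table, and 9 of the 121 had more than 1 name, up to 4.

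DFAT cells are fibroblast-like cells obtained by letting floating fat cells attach to the ceiling of a culture flask and lose their lipid. Per the series' design text, the cells came from Sprague-Dawley rats and the extracellular vesicles were collected by ultracentrifugation, and the labels give adipose tissue as the source. The 14 d group (n = 3) holds vesicles of cells after 14 d in a medium that induces bone formation, and the 0 d group (n = 3) those of cells at 0 d of it. Since no label ties a sample to its own culture or animal, each p-value rests on the spread of these 6 samples, and that spread may be technical.

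The 14 d libraries held 58730 to 73236 counts and the 0 d libraries 120766 to 164424, so that the 0 d libraries were deeper. Of 10 mesenchymal marker miRNAs, 9 were listed (miR-10b-5p was not), and together they held 64.7% to 71.8% of the counts at 14 d and 31.7% to 44.9% at 0 d. Most of these were counts of miR-21-5p (41997, 43719 and 36661 at 14 d, 58354, 69688 and 35497 at 0 d). In the edgeR test below, miR-21-5p, miR-214-3p, miR-143-3p, miR-145-5p and miR-152-3p were called higher at 14 d. miR-125b-5p was called lower (log2 fold change -2.95, edgeR adjusted p = 0.00647). Not called were miR-100-5p, miR-199a-3p and miR-199a-5p. An isoform left out by the rule, chr3_14429, is miR-199a-3p without its last base and is not in the marker shares above. It was called higher at 14 d (log2 fold change 1.52, edgeR adjusted p = 0.0141). Its counts were 2299, 2126 and 2463 at 14 d, against 3854, 4563 and 2042 at 0 d. The 5 erythrocyte and serum markers held 0.0393% to 0.115% at 14 d and 0.197% to 0.503% at 0 d. The liver miRNA miR-122-5p held 0.409% to 0.594% at 14 d and 2.77% to 10.7% at 0 d. Of the neural markers 1 of 2 was listed (not miR-124-3p) and of the leukocyte markers 1 of 3 (not miR-142-3p or miR-223-3p), both with no count at 14 d and at most 0.00328% and 0.00263% at 0 d. The summed share of the erythrocyte and serum markers and the share of miR-122-5p were higher at 0 d. The erythrocyte and serum markers did not all go the same way. In the edgeR test, miR-16-5p was called higher at 14 d (adjusted p = 0.0259). Its counts were 21, 80 and 36 at 14 d, against 49, 38 and 29 at 0 d. miR-486 and miR-144-5p were called lower (edgeR adjusted p = 0.0015 and 0.0432). The share of the predicted sequences below was also higher at 0 d, and the part of these markers in those results was not tested.

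A miRNA is cut from a hairpin precursor, first in the nucleus by Drosha and then in the cytoplasm by Dicer, and one arm of the resulting duplex is loaded into an Argonaute protein. The loaded strand finds messenger RNAs mainly through its seed, bases 2 to 8 from the 5′ end, and usually begins with U or A. Programs that predict miRNAs look for stacks of reads that could be folded into such a hairpin. Fragments of tRNA, ribosomal RNA or messenger RNA can also form stacks, so a predicted miRNA is a candidate until its processing has been shown.

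The 4 sequences with enough counts to be tested between 14 d and 0 d vesicles are shown first, because they are the only ones that passed the filter on low counts. The seed is in capitals.
chr1_80: gGGGCGCGcgggcggggccggg
chr17_10293: uUGUCUGUguguauguccaugu
chr17_9713: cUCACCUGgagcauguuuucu
chr10_4283: gGGGAUGUagcucagugguaga
They are unlike one another in composition. The GC content was 100% in chr1_80, 40.9% in chr17_10293, 47.6% in chr17_9713 and 54.5% in chr10_4283.

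The 121 sequences made up a small part of the vesicle small RNA, and a smaller part at 14 d than at 0 d. They held 82 counts (0.134%), 136 counts (0.186%) and 95 counts (0.162%) in the 14 d libraries, against 2007 counts (1.32%), 1792 counts (1.09%) and 1513 counts (1.25%) in the 0 d libraries. The ranges did not overlap. The mean share was 0.161% ± 0.0258 (SD, n = 3) at 14 d, against 1.22% ± 0.118 (SD, n = 3) at 0 d. The 95% Wilson intervals of the single libraries ran from 0.108% to 0.220% at 14 d and from 1.04% to 1.38% at 0 d. These intervals cover counting error only. The predicted tags of 19 nt or less had mean shares of 6.40% ± 2.70 at 14 d, against 1.51% ± 1.08 at 0 d. Most of their 14 d counts belonged to 1 tag, chr1_1509, picked after its values were seen, and without it the shares were 0.829% ± 0.371 at 14 d, against 1.48% ± 1.06 at 0 d. Most of their 0 d counts likewise belonged to 1 tag, chr4_17546, also picked after its values were seen. It had 2810, 307 and 2072 counts at 0 d, against 0, 2 and 0 at 14 d. chr4_17546 was kept in these shares, so their direction depends on which tag is left out. A lower share cannot be told apart from more of the other RNAs in the library, nor vesicles from fewer cells of a type from less RNA per cell.

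Most of the sequences were rare, and 1 of them carried much of the total. The sum over the 6 libraries was 5625 counts, of which chr1_80 held 46.6% and the 4 tested sequences together 67.6%. At 0 d, chr1_80 alone held 49.4% of these counts. Without it, the mean share was still 0.161% at 14 d, against 0.627% ± 0.122 at 0 d. At 14 d, 56.6% of the counts belonged to chr17_10293 and chr17_9713. The median sequence had 12 counts over all 6 libraries, against 58 for an annotated miRNA. A sum of 20 or less was found in 96 of the 121, and a sum of 50 or more in 9. In the order of abundance over all 417 sequences, chr1_80 was number 25, chr17_10293 number 52, chr17_9713 number 69 and chr10_4283 number 75.

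**Figure D1:**
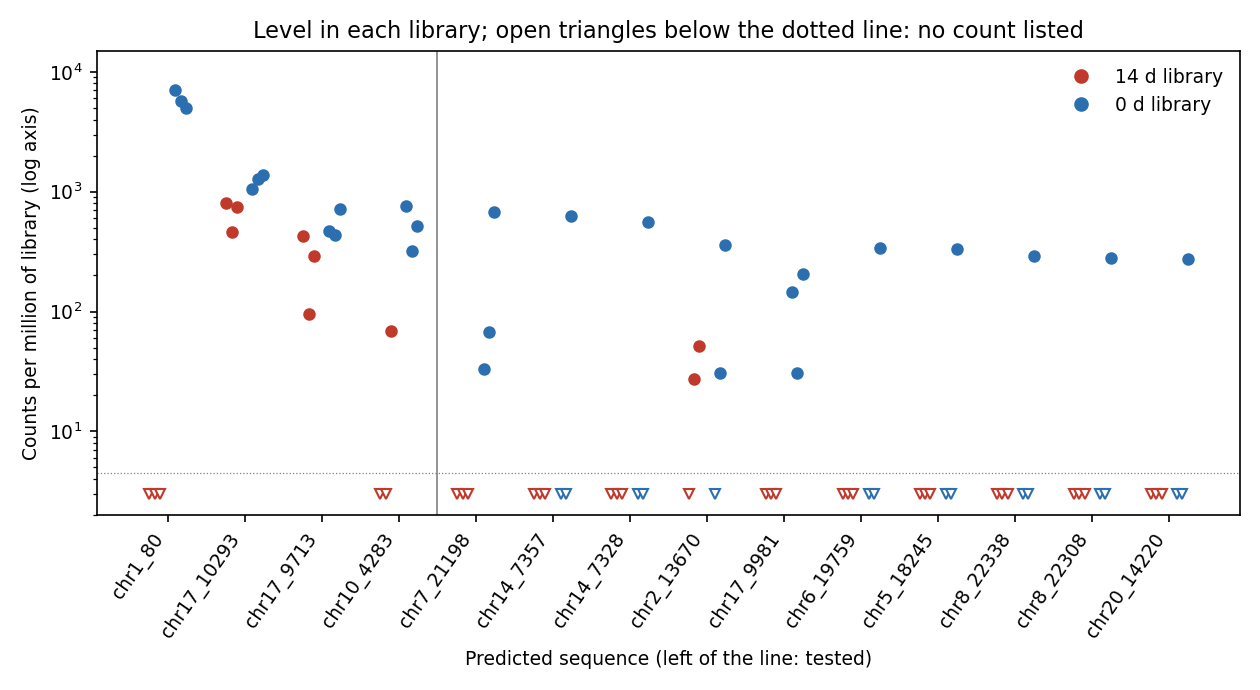
Level in CPM of the library total (log axis) of the 4 tested sequences (left of the vertical line) and of the 10 next most abundant ones. Each point is 1 library, red for 14 d and blue for 0 d, and open triangles stand for libraries with no count. 7 of the 10 sequences on the right have a point in 1 blue library and no other.

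chr1_80 fell at 14 d. It had no count in any of the 3 libraries at 14 d, against 1084, 942 and 598 counts in the 0 d libraries. Scaled by trimmed mean of M-values (TMM) factors, the 0 d levels were 5342, 4290 and 3601 CPM (counts scaled to a common library size), with a mean of 4411 ± 876 (SD, n = 3). The groups did not overlap, and the difference passed the test (edgeR's quasi-likelihood test, Benjamini-Hochberg adjusted p = 0.0013). No fold is given, since the 14 d cells were blank.

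chr10_4283 also fell. It had 0, 0 and 4 counts in the 14 d libraries, against 116, 53 and 63 in the 0 d libraries. Its groups did not overlap, and the TMM-scaled means were 24.8 ± 42.9 CPM at 14 d, against 398 ± 166 CPM at 0 d (SD over 3 libraries). The log2 fold change was -3.85 ± 1.23 (SE; edgeR adjusted p = 0.0318). The call was lost when any of 3 libraries was left out: 14 d replicate 1 gave -3.24 (adjusted p = 0.062), 14 d replicate 2 gave -3.38 (0.0655) and 0 d replicate 1 gave -3.37 (0.0615). All its 14 d counts were in replicate 3, and leaving that library out gave -8.74 (adjusted p = 0.0185). No 14 d count was then left, so that -8.74 is not a measured fold. The call was also lost when libraries were thinned to the smallest total (-2.62, adjusted p = 0.0748).

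chr17_10293 was listed in all 6 libraries and had the lowest variation between replicates of the 4 on the TMM scale. It had 49, 34 and 44 counts in the 14 d libraries, against 159, 210 and 168 in the 0 d libraries. TMM-scaled, these were 875, 993 and 818 CPM at 14 d and 784, 956 and 1012 CPM at 0 d, so that the groups overlapped. The log2 fold change was -0.04 ± 0.40 (SE; edgeR adjusted p = 0.929). The value depended on the scaling: with total counts the levels were 802, 464 and 749 CPM at 14 d against 1044, 1277 and 1391 CPM at 0 d, which do not overlap, and the log2 fold change was -0.89 (adjusted p = 0.13). After thinning it was 0.88 (adjusted p = 0.111). Over all alternatives the adjusted p lay between 0.111 and 0.982. Its coefficient of variation between replicates, from TMM-scaled levels, was 9.96% at 14 d and 13.0% at 0 d. It was the eighth lowest of 114 sequences with a count at 14 d and number 17 of 114 at 0 d, where the medians were 52.0% and 30.8%. On the scale of total counts the coefficients were 27.04% at 14 d and 14.3% at 0 d. The TMM factor of 14 d replicate 2 was 0.470.

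chr17_9713 was the other sequence listed in every library. It had 26, 7 and 17 counts in the 14 d libraries, against 71, 72 and 87 in the 0 d libraries. The TMM-scaled means were 328 ± 130 CPM at 14 d, against 401 ± 107 CPM at 0 d (SD over 3 libraries), and the groups overlapped on this scale. With total counts the levels were 425.4, 95.58 and 289.5 CPM at 14 d against 466.3, 437.9 and 720.4 CPM at 0 d, which do not overlap. The log2 fold change was -0.28 ± 0.59 (SE; edgeR adjusted p = 0.694), against -1.01 with total counts (adjusted p = 0.223) and 0.70 after thinning (adjusted p = 0.311). Leaving out 14 d replicate 1 gave -0.61 and leaving out 14 d replicate 2 gave -0.025, neither called.

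In all, 4 of the 121 sequences passed the filter on low counts, and of these 2 fell and 0 rose. Both that fell passed the filter through their 0 d counts, and chr5_18717, with counts at 14 d alone, did not pass it, so these 2 directions say nothing of the other sequences. Over all 119 sequences tested, 54.6% were called in either direction and 28.6% were called lower at 14 d. Of the calls over all sequences, 47.7% were higher at 14 d, against 28.1% with total counts and 65% after thinning. The groups of 2 of the 4 did not overlap, against 78.2% of all tested sequences. At an unadjusted p below 0.05 the same count of 2 was reached, against 76 of all 119 sequences tested. DESeq2 also called 2 of the 4, against 81 of the 119. Leaving out 14 d replicate 2 or 0 d replicate 1 left 1 call, that of chr1_80, and leaving out 0 d replicate 2 gave 3 calls, with chr17_9981 as the third. Without 14 d replicate 1 the calls were chr1_80, lower, and chr5_18717, higher.

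**Figure D2:**
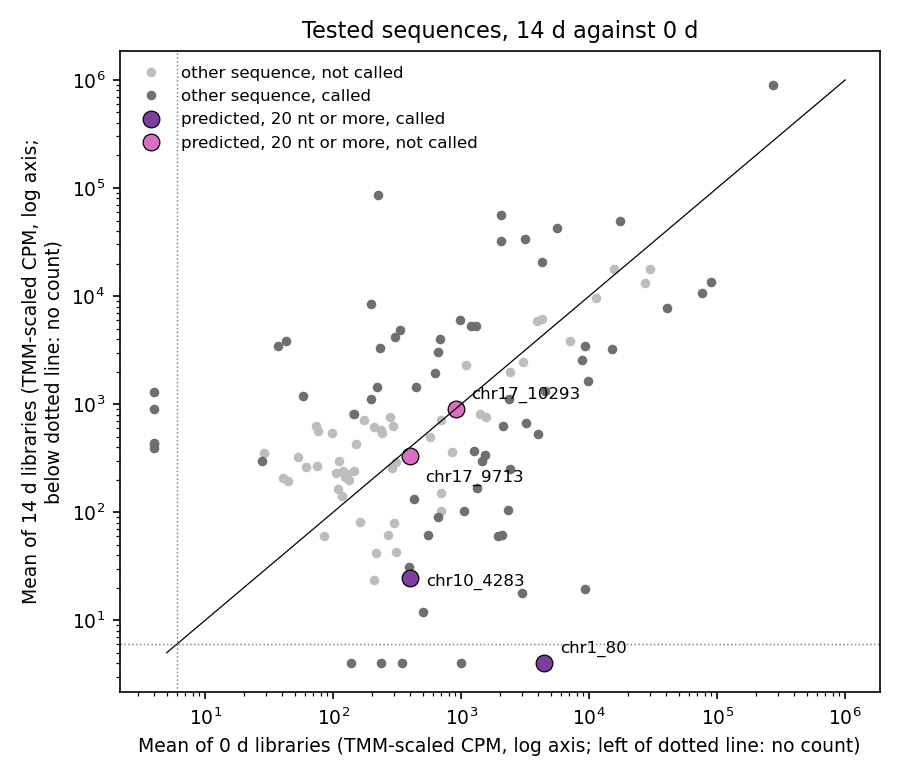
Mean TMM-scaled CPM of the 14 d libraries (vertical) against the 0 d libraries (horizontal), both on log axes, for the 119 sequences tested, with groups at 0 drawn beyond the dotted lines. chr1_80 lies on the row with no count at 14 d, chr10_4283 far below the line of equality, and chr17_10293 and chr17_9713 close to it.

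Of the 117 sequences below the filter, the 10 with the largest sums are shown because most of them had their counts in a single library. The seed is in capitals.
chr7_21198: gGAGUCGGguugcuugggaaugca
chr14_7357: cGUCAACGgggccaaguggaauccu
chr14_7328: cUCCCUCUaguccucuugguugu
chr2_13670: uUCGGCUGcauuucucgguugu
chr17_9981: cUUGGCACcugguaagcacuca
chr6_19759: cGGUUGGUggucugaguucagguc
chr5_18245: uCCGAGAGauguugaguaagagu
chr8_22338: gUGGAAUGacccugugcucagaaag
chr8_22308: aUUGGGGCugacugagaaaaggc
chr20_14220: cUGUGCCUgcuacacgcugucu
chr7_21198 had no count at 14 d and 5, 11 and 81 counts in the 0 d libraries, so that 0 d replicate 3 held most of them. chr17_9981 had no count at 14 d and 22, 5 and 25 counts at 0 d. chr2_13670 had 0, 2 and 3 counts at 14 d and 0, 5 and 43 counts at 0 d. The other 7 were listed in 0 d replicate 3 and in no other library, with counts of 75 (chr14_7357), 68 (chr14_7328), 41 (chr6_19759), 40 (chr5_18245), 35 (chr8_22338), 34 (chr8_22308) and 33 (chr20_14220).

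One sequence was listed in all libraries at 14 d and in none at 0 d, and it is named here after its values were seen. chr5_18717, printed with its seed in capitals as aGGAAGGGcugggaggguugccugc, had 5, 8 and 8 counts in the 14 d libraries and none in the 0 d libraries. It was too rare for the filter and so was not tested; without any filter it was called higher (adjusted p = 0.0193).

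Most of these sequences were listed in 1 library. Of the 121, 102 (84.3%) were listed in 1 library, 10 in 2 libraries, 5 in 3, 2 in 4, none in 5 and 2 in all 6. Of the 217 annotated miRNAs, 23.0% were listed in 1 library and 33.6% in all 6, and of the 76 predicted tags of 19 nt or less, 48.7% in 1 library and 3.95% in all 6. Only-14 d listing was found for 17 of the 121 (14.05%, against 53.95% of the shorter tags and 12.44% of the annotated miRNAs). Only-0 d listing was found for 96 (79.34%, against 38.16% of the shorter tags and 24.88% of the annotated miRNAs). Listing in both groups was found for 8 (6.61%), a share near that of the shorter tags (7.895%) and below that of the annotated miRNAs (62.7%). The 0 d libraries were deeper.

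**Figure D3:**
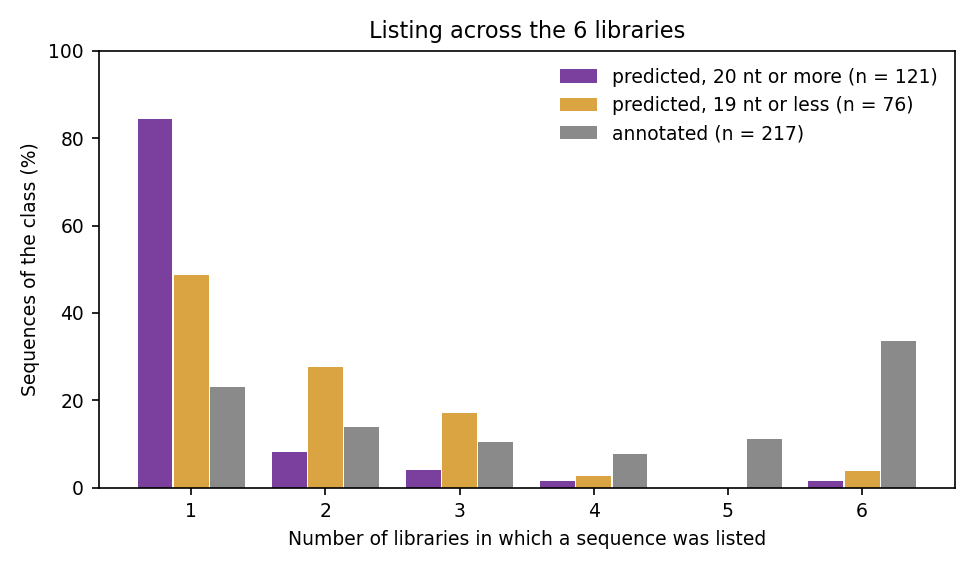
Share of the sequences of each class (vertical, in %) by the number of libraries in which they were listed (horizontal). The predicted sequences of 20 nt or more stand at 84.3% in 1 library, the annotated miRNAs at 23.0% in 1 library and 33.6% in all 6.

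The 3 classes also differed among sequences of like abundance. Among sequences with a sum of 10 to 50 counts, 60 of 71 predicted sequences of 20 nt or more (84.5%) were listed in 1 library, against 17 of 61 annotated miRNAs (27.9%) and 3 of 18 shorter predicted tags (16.7%). Among sequences with a sum of 2 to 9 counts, the shares were 97.6% of 41, 76.2% of 42 and 69.4% of 49.

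The number listed differed widely between libraries. It was 4, 21 and 12 in the 14 d libraries, against 48, 48 and 24 in the 0 d libraries, with means of 12.3 ± 8.50 at 14 d, against 40.0 ± 13.9 at 0 d (SD over 3 libraries). The ranges did not overlap, although 14 d replicate 2 with 21 and 0 d replicate 3 with 24 were close. Without 14 d replicate 2 the mean at 14 d was 8.0. When every library was reduced to 58730 counts by calculation, with at least 2 counts needed for listing, the expected numbers were 3.92, 18.3 and 12.0 at 14 d and 45.4, 41.0 and 22.6 at 0 d. The annotated miRNAs, reduced in the same way, averaged 128 ± 6.76 at 14 d and 131 ± 22.6 at 0 d.

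Few sequences were shared between 0 d libraries. At 14 d, the short lists of replicates 1 and 3 were mostly held in that of replicate 2. Of the 21 sequences of replicate 2, 10 were in no other library. Between 2 libraries at 14 d, 3 to 9 of the sequences were shared, and between 2 libraries at 0 d, 6 to 9. For 0 d replicates 1 and 2, with 48 listed sequences each, 9 were shared, or 18.8% of each list. For 0 d replicates 1 and 3, 6 were shared, or 12.5% and 25.0% of the 2 lists. For 14 d replicates 2 and 3, 9 were shared, or 42.9% and 75.0%. The 4 sequences of 14 d replicate 1 shared 3 with replicate 2 and 3 with replicate 3, in both cases 75.0% of the 4, and 14.3% and 25.0% of the longer lists. For the annotated miRNAs, the shares lay between 77.8% and 88.4% for pairs at 14 d and between 60.0% and 90.0% for pairs at 0 d.

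**Figure D4:**
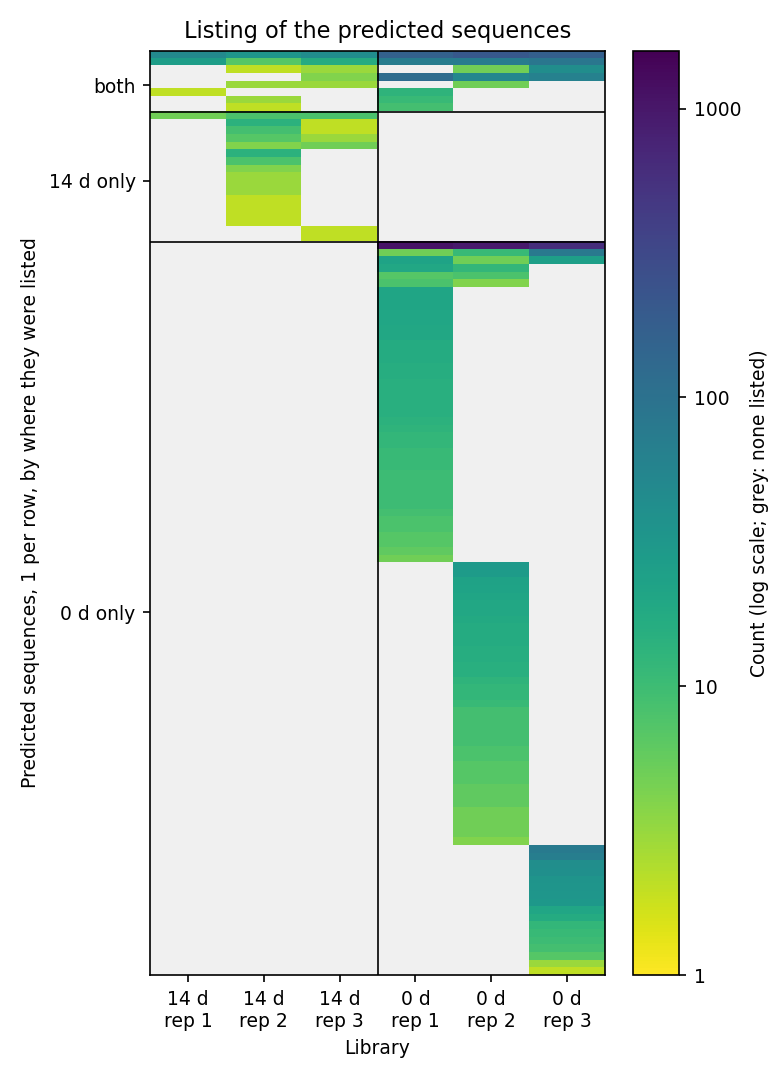
Counts of the 121 predicted sequences (1 per row, colour on a log scale, grey where none was listed) in the 3 libraries at 14 d and the 3 at 0 d. Blocks of 36, 37 and 17 rows have a count in a single 0 d library, and few rows have counts across a group.

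The counts behind single listings differed between libraries. The 12 sequences found in 1 library at 14 d were in replicate 2 (10, with 2 to 14 counts) and replicate 3 (2, with 2 counts each). The 90 found in 1 library at 0 d were in replicate 1 (36, with 5 to 21 counts and a median of 13.5), replicate 2 (37, with 4 to 30 counts and a median of 11) and replicate 3 (17, with 2 to 75 counts and a median of 20).

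The predicted sequences of 20 nt or more differed from annotated miRNAs in their first base and composition. They began with A in 41.3% and with U in 29.8%, whereas annotated miRNAs began with A in 27.2% and with U in 47.9%. The predicted tags of 19 nt or less departed further in the same direction, with A in 64.5% and U in 6.58%. The median GC content of the sequences of 20 nt or more was 54.5%, against 47.6% for annotated miRNAs and 60.0% for the shorter tags. A length of 21 to 23 nt was found in 66.9% of the sequences of 20 nt or more and in 93.1% of the annotated miRNAs, and both classes had a median length of 22 nt. The 17 sequences listed only at 14 d began with A in 13 cases (76.5%), against 36 (37.5%) of the 96 listed only at 0 d and 1 of the 8 listed in both groups. The first base of 5 of those 8 was U.

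The length that separates these sequences from the shorter tags fell between values that were alike in number and unlike in counts. The 19 predicted sequences of 20 nt had 18 counts at 14 d and 146 at 0 d, and 3 of them were listed at 14 d and 17 at 0 d. The 18 tags of 19 nt had 165 counts at 14 d and 88 at 0 d, and 7 were listed at 14 d and 13 at 0 d. The 42 sequences of 22 nt were the most numerous length, with 149 counts at 14 d and 3937 at 0 d.

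**Figure D5:**
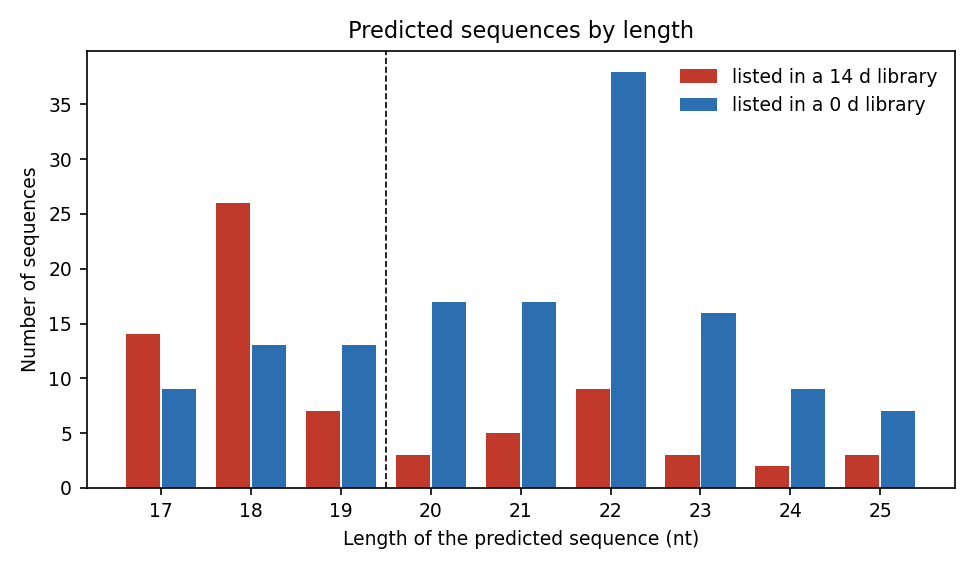
Number of predicted sequences (vertical) of each length in nt (horizontal) that were listed in a 14 d library (red) or a 0 d library (blue), with the dashed line at the length that separates the 2 classes. From 20 nt upwards blue exceeds red at each length, while at 17 and 18 nt red exceeds blue.

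Most seeds were not those of known rat miRNAs. In the RefSeq table of the GRCr8 build, with 692 different mature sequences, the seed of 11 of the 121 (9.09%) was found, against 8 of 76 shorter tags (10.5%). For 4 of the 11 the miRNA with the same seed was itself listed in these libraries. They are shown beside those miRNAs, with the shared seed in capitals.
chr14_7022: aGGGGUGCugggagccgagcuc
miR-342-5p: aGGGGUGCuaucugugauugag
chr10_3045: uGAGGGGCuaggggcggagcgu
chr1_2295: aGAGGGGCgugggcaaugaga
miR-423-5p: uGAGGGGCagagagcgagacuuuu
chr7_21716: gGAGAUGAaccgugugcuggc
miR-143-3p: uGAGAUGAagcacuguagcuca
Each of the 4 was listed in a single 0 d library, with 21, 11, 11 and 9 counts in the order shown. The miRNAs with these seeds were far more abundant in 2 of the 3 cases. miR-423-5p, common in vesicles and serum, had 168, 66 and 131 counts at 14 d and 651, 730 and 424 at 0 d. miR-143-3p, known from smooth muscle and stromal cells, had 351, 165 and 262 counts at 14 d and 362, 262 and 100 at 0 d. miR-342-5p had no count at 14 d and 0, 21 and 41 at 0 d. Of the tested sequences, chr17_10293 had the seed of miR-632, and of the 10 below the filter, chr17_9981 had that of miR-96-5p. Neither miRNA was listed in the table. Nor were those that shared a seed with 4 others, chr5_18109 (miR-3584-5p), chr12_5441 (miR-203b-5p), chr19_11112 (miR-378a-5p) and chr2_12932 (miR-1956-3p).

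One predicted sequence was a known rat miRNA but for its last base. chr11_4808 is held whole in miR-1306-3p of RefSeq (GRCr8), a miRNA of chromosome 11, and in its hairpin. The seed is in capitals.
chr11_4808: gACGUUGGcucugguggugau
miR-1306-3p: gACGUUGGcucugguggugaug
It was listed in 0 d replicate 2, with 5 counts, and in no other library. None of the other 120 held, or was held in, a RefSeq mature miRNA with at most 2 bases more or fewer.

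The tested sequence with the lowest variation between replicates on the TMM scale resembled a miRNA of its own chromosome. chr17_10293 shared a run of 16 bases with miR-466b-5p, which RefSeq places on chromosome 17, and the table held another predicted sequence of that chromosome, chr17_10298, that contains the reverse complement of 14 of its bases. chr17_10298 was chosen for this resemblance after its values were seen. For the first pair the shared run is in capitals.
chr17_10293: uugucUGUGUGUAUGUCCAUGu
miR-466b-5p: uaugugUGUGUGUAUGUCCAUG
For the second pair the capitals mark the stretches that are reverse complements of each other.
chr17_10293: uugUCUGUGUGUAUGUCcaugu
chr17_10298: uacauaccGACAUACACACAGA
chr17_10298 had 4 names in the table and 4 counts in 0 d replicate 2. chr17_10293 had 210 counts in the same library.

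chr1_80 overlapped 3 shorter predicted tags that were likewise listed at 0 d alone. The longest run that each shares with it is in capitals.
chr1_80: ggggCGCGCGGGCGGGGCCGGg
chr14_7853: CGCGCGGGCGGGGCCGG
chr1_80: ggggcgCGCGGGCGGGGCCGGG
chr9_24005: CGCGGGCGGGGCCGGGgg
chr1_80: ggggcgcGCGGGCGGGGCCGGG
chr1_2101: GCGGGCGGGGCCGGGgg
The runs were 17, 16 and 15 bases long. None of the 3 tags had a count at 14 d. At 0 d, chr9_24005 had 63, 20 and 52 counts, chr1_2101 had 10, 0 and 16, and chr14_7853 had 2, 0 and 5. The names place these overlapping sequences on 3 chromosomes, so that reads of one could have been counted under another, and the levels of the 4 entries are uncertain to that extent.

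chr10_4283 contained UAGCUCAG, letters that many tRNAs have near their 5′ end. Searched on the strand as deposited, these letters were in 1 of the 121 sequences (0.826%), in 4 of 76 shorter predicted tags (5.26%) and in none of 217 annotated miRNAs. chr10_4283 also shared its last 12 bases, in capitals here, with chr1_2276.
chr10_4283: ggggauguagCUCAGUGGUAGA
chr1_2276: ggggguguauCUCAGUGGUAGA
chr1_2276 had no count at 14 d and 12, 0 and 0 counts at 0 d. A run of the same length, again in capitals, was shared with the shorter tag chr5_17598.
chr10_4283: ggggaUGUAGCUCAGUGguaga
chr5_17598: gggggUGUAGCUCAGUGc
chr5_17598 had 0, 20 and 10 counts at 14 d and none at 0 d.

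A few of the sequences matched a gene start, and no rate for other sequences is given beside them. In the RefSeq windows from 250 bases before to 50 bases after the start of a gene (GRCr8, 33469 windows, both strands), 5 of the 121 sequences were found whole. In each of the 5 cases the gene lies on the chromosome in the sequence's name. chr5_18109 lay on the strand of Nrdc, from base -17 to base 6 counted from its start, and chr6_20310 on that of Pgf, from base 23 to base 44. chr10_3045 lay on the strand of Adam19 from base -54 to base -33, and chr2_12729 on that of Ddah1 from base -59 to base -38. chr2_13670 lay on the strand opposite to Usp33, from base -167 to base -146. Of these 5, chr2_13670 was listed in both groups and the other 4 in 1 library at 0 d each.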

How the data were processed

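Small RNA was sequenced from 3 vesicle samples at 14 d and 3 at 0 d of osteogenic medium. The labels name Trizol for extraction and a GenSeq kit for the libraries. Novoalign 3.02.12, cutadapt 1.9.3 and the build rn6 stand in the submitters' processing notes, with no role. No source used here gives the tool for prediction or counting. The deposited raw counts are reads of each mature sequence, per the file headers, with 2 as the smallest listed. Blanks were taken as 0. The authors' second table holds a normalized score, a scaled tag count rounded to whole numbers, and served as an alternative.

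Entries of identical mature sequence were joined. Counts were tested with edgeR 4.0.16 (R 4.3.3): quasi-likelihood F test, 2-sided, TMM factors, default filter (minimum count 10, minimum total 15), Benjamini-Hochberg adjustment over the 119 sequences kept, called at an adjusted p below 0.05. SE is the log2 fold change over the square root of F. The script was tested on simulated data. Named sequences are those tested, the 10 next by summed count and those that share a seed or sequence with an annotated miRNA. Outside this rule, and chosen after their values or sequences were seen, are chr5_18717, chr1_1509, chr4_17546, chr3_14429 and those named for overlap with another sequence or a gene start. Members and lists were chosen with earlier results of these data known. Alternatives used RLE, upper-quartile and total-count scaling, DESeq2 1.42.0, limma 3.58.1, other filters, 1 line per name, thinned libraries, a replicate block and each library left out.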

Additional observations from a re-analysis of the deposited data

How the results depend on the processing

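Of the 121 predicted sequences, 117 did not pass the filter, which asks for counts in several libraries, and were not tested with it in place. Library totals were 58730 to 164424 counts. The call of chr1_80 and its direction were the same in all 17 alternatives. The number of the 121 that were called was 2, and 4 with no filter, where chr7_21198 was also lower and chr5_18717 higher. With no filter, 65 of all 417 sequences were called. It was 1 with thinned libraries, and 1 to 3 when each library was left out. Thinning was a single random draw that left fewer counts and also shifted the log2 fold changes, and why the call was lost was not tested. Over the table, 65 sequences were called, against 62 with the replicate block, 50 to 69 when each library was left out and 81 with DESeq2. Total counts gave 18 higher and 46 lower calls (28.1% higher, against 47.7% with TMM) and shifted log2 fold changes by a median of -0.87, thinning by 0.76. The direction of the uncalled values turned for chr17_10293 with a minimum count of 20 (0.46), with thinned libraries (0.88) and when 14 d replicate 3 (0.049) or one of 0 d replicates 2 and 3 was left out, with a range of -0.18 to 0.049 over the 6 libraries left out in turn, and for chr17_9713 with a minimum count of 20 (0.21) and thinned libraries (0.70). The cause was not tested. With the 3 isoforms kept, the mean share was 3.79% at 14 d and 3.56% at 0 d. Deviations of same-numbered samples correlated at -0.02, 0.04 and 0.17, so the numbers were not taken as pairs, with 14 d replicate 3 alone of the 14 d samples correlating best with its own number, and the replicate block gave the same 2 calls.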
